A study of Mus musculus with 28 samples.

Results

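Brain neuropeptides are described here through 10 genes, Npy, Penk, Sst, Cck, Tac1, Pomc, Avp, Oxt, Gal and Pmch, taken by name, by a rule that uses no measured value. Every probe set paired with 1 gene symbol in that list was taken, which gave 12 of the 12422 probe sets on the array, from 9 of the 8251 genes they are paired with. Of these 12, 10 passed the filter on dim probe sets, as did 7350 of all probe sets. No probe set was paired with Pmch, the precursor of melanin-concentrating hormone, so it was not analysed here. Penk was read by 3 probe sets and Gal by 2, and the dimmest of each failed the filter. The other Penk probe sets are called the bright and the dim one.

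The study asked how the mouse brain's transcripts stand 1 hour after a seizure brought on by nicotine, and whether nicotinic receptor genotype alters this. RNA from each of 28 whole brains of C57BL/6J mice was hybridised to 1 Affymetrix U74Av2 array. The 12 seized mice, all 7 to 8 weeks old, were 3 of wild-type genotype, 5 alpha7 +/T and 4 beta4 null, each given an intraperitoneal nicotine dose chosen per genotype to reach a like seizure score. The 16 mice without nicotine, 6 to 9 weeks old, were 6 of wild-type genotype, 5 alpha7 +/T and 5 beta4 null. The alpha7 +/T mice carry 1 copy of the L250T allele, a substitution in the channel-lining segment of the alpha7 receptor subunit that makes the receptor open more readily, whereas the gene of the beta4 subunit is inactive in beta4 null animals. The labels name no vehicle injection in the untreated mice, so injection, nicotine and seizure cannot be told apart. The 8 mice of 6 weeks were all untreated (3 wild-type, 4 alpha7 +/T and 1 beta4 null), and 7 of them had sample titles that begin with LT and 1 a title that begins with B4.

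Neuropeptides are cut from larger precursor proteins, packed into dense-core vesicles and released on strong firing, after which the store is refilled by new synthesis in the cell body. Several of them are kept by small groups of cells: Avp and Oxt by magnocellular neurons of the hypothalamus, and Pomc by arcuate neurons and by the pituitary gland beneath the brain. Others are spread widely, Npy and Sst through GABA interneurons, Cck through cortex and hippocampus, and Penk and Tac1 through the striatum. In RNA of a whole brain, fewer cells of a type and less RNA per cell cannot be told apart.

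The promoters of Avp, Oxt, Cck and Sst are printed because the first pair are neighbours on chromosome 2 whose signals are set side by side in these data, Cck was the member called after seizure in 1 genotype, and Sst was the one member with the full cyclic AMP response element among the 9 whose window could be searched, all but Penk. Sequences and coordinates are from RefSeq on GRCm38.p6, each 250 bases before and 50 bases from the gene's start, 5′ to 3′ on the gene's strand. They lie at chr2:130582539-130582838 (minus strand) for Avp, chr2:130575919-130576218 (plus strand) for Oxt, chr9:121495645-121495944 (minus strand) for Cck and chr16:23890795-23891094 (minus strand) for Sst. Capitals mark matches to the motifs named next.
Avp: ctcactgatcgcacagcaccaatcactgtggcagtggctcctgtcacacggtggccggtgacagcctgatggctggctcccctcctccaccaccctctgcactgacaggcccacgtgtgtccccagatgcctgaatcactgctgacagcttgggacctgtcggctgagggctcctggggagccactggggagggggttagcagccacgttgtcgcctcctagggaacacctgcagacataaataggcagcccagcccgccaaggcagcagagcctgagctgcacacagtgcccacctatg
Oxt: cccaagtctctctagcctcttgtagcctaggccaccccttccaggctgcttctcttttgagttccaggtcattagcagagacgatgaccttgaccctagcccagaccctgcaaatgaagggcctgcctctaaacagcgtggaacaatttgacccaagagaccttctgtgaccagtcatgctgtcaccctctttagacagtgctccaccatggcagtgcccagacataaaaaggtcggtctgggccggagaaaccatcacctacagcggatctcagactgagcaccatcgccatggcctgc
Cck: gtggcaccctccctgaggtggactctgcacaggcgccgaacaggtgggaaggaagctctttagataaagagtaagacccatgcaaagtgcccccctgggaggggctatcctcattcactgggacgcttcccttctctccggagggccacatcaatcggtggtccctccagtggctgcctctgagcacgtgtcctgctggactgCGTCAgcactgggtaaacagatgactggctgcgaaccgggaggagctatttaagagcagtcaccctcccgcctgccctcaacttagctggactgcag
Sst: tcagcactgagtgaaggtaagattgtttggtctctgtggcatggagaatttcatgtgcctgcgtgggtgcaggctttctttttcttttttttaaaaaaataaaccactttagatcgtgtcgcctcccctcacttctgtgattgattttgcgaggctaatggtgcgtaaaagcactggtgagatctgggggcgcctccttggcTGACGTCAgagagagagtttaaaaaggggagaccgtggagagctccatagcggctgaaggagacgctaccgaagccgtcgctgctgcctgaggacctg

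The search covered 3 motifs of activity-regulated promoters, on both strands. The cyclic AMP response element TGACGTCA stood in 1.79% of 32851 mouse promoter windows and, of the 9 members with a window, in Sst. Its core, CGTCA, which lies within the full element, stood in 20.8% of windows and in those of Cck, Gal, Sst and Tac1. The AP-1 site TGACTCA stood in 5.2% of windows and in that of Pmch. The printed windows of Avp and Oxt held none of these letters. A match is a description of sequence and was not tested as a site.

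Across the arrays, Fos, an immediate early gene used as a check of the labels, had a signal of 655 to 1401 in the 12 seized mice, against 54.4 to 487 in the 16 untreated mice, with no overlap. The arrays were split by a control ratio, for reasons that the labels do not give. The log2 ratio of the 3 prime to the 5 prime Gapdh control was 1.13 to 2.57 on 19 arrays, called high-ratio here. It was -0.48 to 0.096 on 9 arrays, called low-ratio. The low-ratio arrays were 3 of seized alpha7 +/T mice, 2 of seized beta4 null mice, 2 of untreated alpha7 +/T mice and 2 of untreated beta4 null mice, and none of wild-type mice. Between low-ratio and high-ratio arrays, with group means in the fit, 52.1% of all probe sets passed at an adjusted p under 0.05 (limma), and so did 6 of the 10 member probe sets. On low-ratio arrays Npy, Penk by its bright probe set, Sst, Tac1 and Oxt were lower, by log2 differences of -0.54 for Oxt to -0.29 for Sst, and the dim Penk probe set was higher by 1.11. Avp, Cck, Pomc and Gal differed by 0.04 to 0.11 and did not pass. Xist signal lay at 1.44 to 106 in the 13 mice labelled female and at 1.31 to 22.9 in the 15 labelled male, and 2 mice labelled female lay within the male range, untreated wild-type mouse 5 at 1.44 and untreated alpha7 +/T mouse 4 at 20.9.

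After seizure, averaged over the 3 genotypes, no member probe set passed, where 0.408% of all 7350 probe sets did (limma, Benjamini-Hochberg adjusted p under 0.05, as for every call that follows). At an unadjusted p under 0.05, 1 of 10 member probe sets was found, beside 8.64% of all. The median log2 difference was -0.03 over the member probe sets and 0.01 over all. By genotype, 0 of 10 passed in wild-type mice (background 0.0544%). In alpha7 +/T mice 1 passed (background 2.80%), and in beta4 null mice 0 (background 0.0136%). At an unadjusted p under 0.05, 4 were found in alpha7 +/T mice, beside 18.4% of all probe sets, 0 in wild-type mice, beside 4.24%, and 0 in beta4 null mice, beside 1.74%. The F test for a seizure difference that depends on genotype called 0 of 10, with a background of 0.0272%, and 1 at an unadjusted p under 0.05, beside 7.66% of all. The member called was Cck in alpha7 +/T mice, and the member found over the average at an unadjusted p was Avp.

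**Figure D1:**
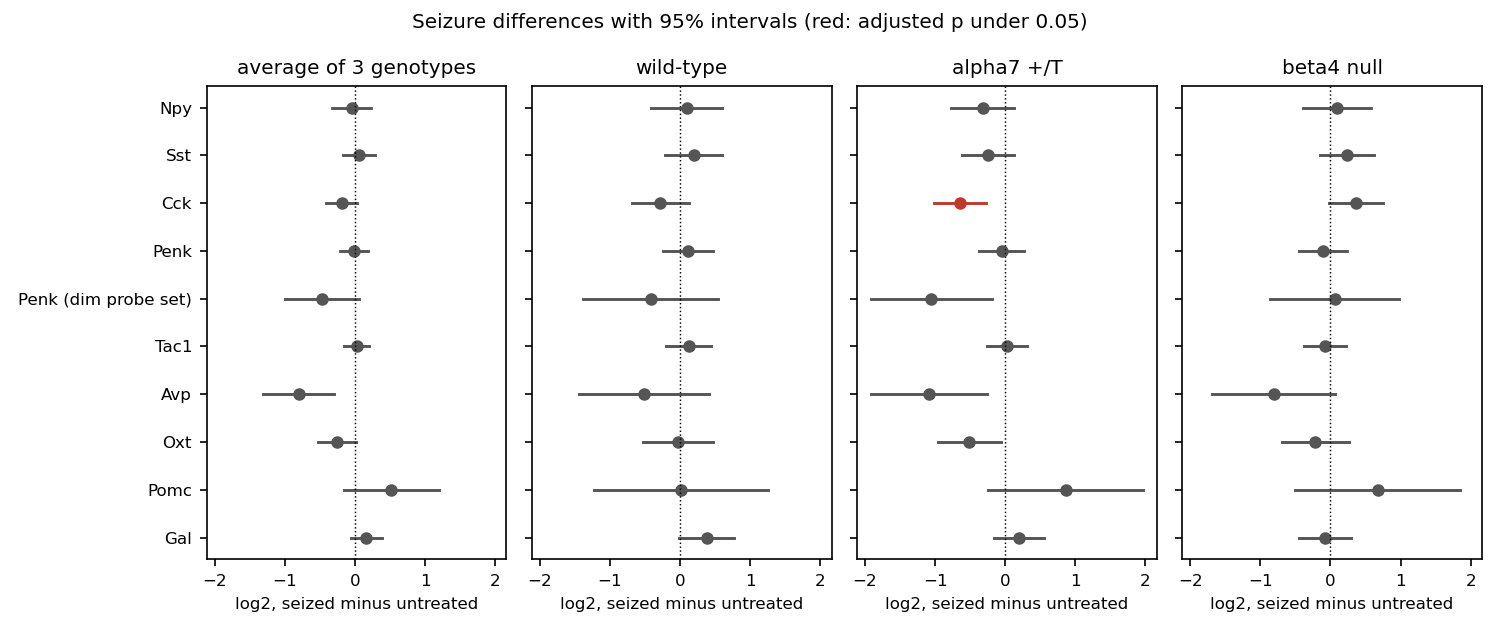
Log2 difference, seized minus untreated, with its 95% interval for the 10 member probe sets, over the average of 3 genotypes and in each genotype. The red point, Cck in alpha7 +/T mice at -0.65, is the one that passed the adjusted threshold, and Avp lies left of 0 in all 4 panels.

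Avp encodes the precursor of vasopressin, the hormone of water balance and of social and stress behaviour. Its signal was 158, 136 and 122 in seized wild-type mice, against a lowest of 71.2, a median of 201 and a highest of 425 in the 6 untreated wild-type mice. In seized alpha7 +/T mice it was 91.1, 70.2, 70.0, 83.7 and 94.3, against 303, 359, 137, 115 and 89.8 in untreated alpha7 +/T mice. In seized beta4 null mice it was 102, 101.2, 112 and 161, against 430, 331, 151, 129 and 128 in untreated beta4 null mice. Each of the 12 seized mice lay below the untreated mean of its own genotype, but the ranges overlapped in all 3 genotypes. The log2 difference was -0.51 ± 0.45 (SE) in wild-type mice, -1.09 ± 0.40 in the alpha7 +/T genotype and -0.81 ± 0.43 in the beta4 null genotype. Averaged, it was -0.80 ± 0.25, with a 95% interval of -1.31 to -0.30, and it did not pass (limma adjusted p = 0.237).

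Avp spread more widely in the untreated mice. The SD of log2 signal was 0.19, 0.20 and 0.31 in seized wild-type, alpha7 +/T and beta4 null mice, and 0.90, 0.88 and 0.83 in the untreated mice of those genotypes. By age, the untreated mice of 6 weeks ran from 115 to 430 with a median of 255, those of 7 or 8 weeks from 71.2 to 151 with a median of 128, and those of 9 weeks, a pair of mice, were at 331 and 425. The seized mice, all of 7 or 8 weeks, ran from 70.0 to 161 with a median of 102, a range close to that of the 6 untreated mice of the same ages. When the 6-week mice were left out, among them 4 of the 5 untreated alpha7 +/T mice, the averaged log2 difference was -0.31. With age as a covariate it was -0.71 (limma adjusted p = 0.794). That covariate is a straight slope per week, which cannot follow signals higher at both 6 and 9 weeks than between. On high-ratio arrays alone the averaged difference was -0.60 (adjusted p = 0.509). With array weights it was -0.74 and passed (adjusted p = 0.0323), where 8.78% of all probe sets passed. Markers of the hypothalamus, summed over the 9 of 14 listed that had a probe set, ran from 672 to 1017 in seized mice and from 744 to 1202 in untreated mice. Their part in the Avp spread was not tested.

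**Figure D2:**
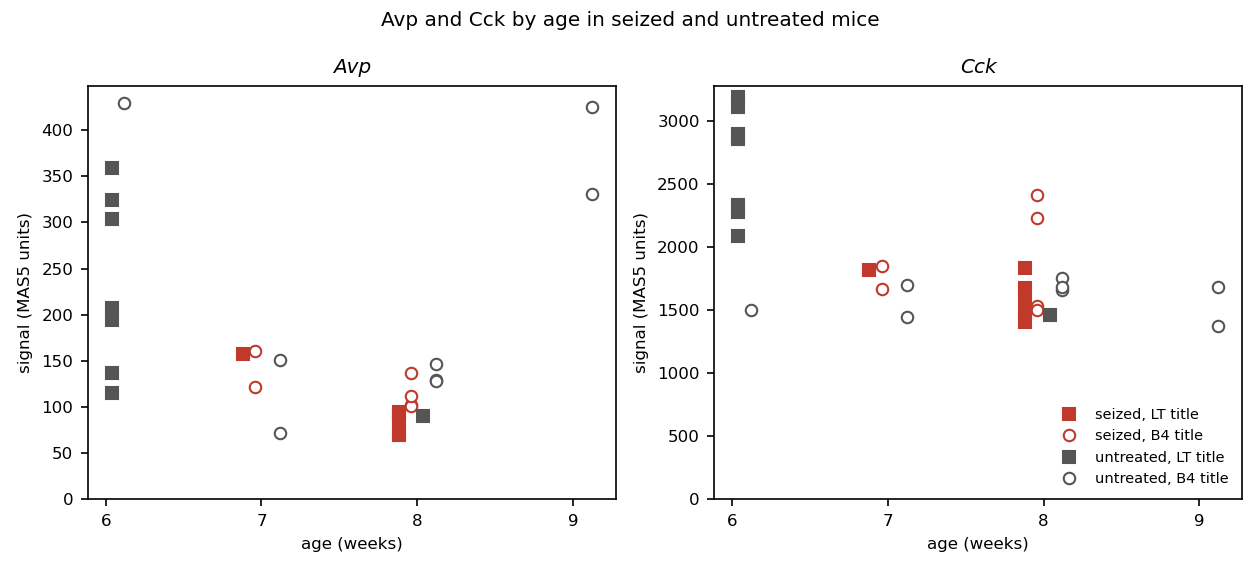
Signal of Avp (left) and Cck (right) against age in weeks, for seized mice (red) and untreated mice (grey), with filled squares for titles beginning with LT and open circles for titles beginning with B4. All 6-week mice were untreated, and the untreated Avp signals of 7 or 8 weeks, 71.2 to 151, cover much the same range as the seized ones, 70.0 to 161.

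Oxt, the neighbour of Avp on chromosome 2, encodes the precursor of oxytocin, which acts in birth, lactation and social bonding. Its signal was 381, 310 and 340 in seized wild-type mice, against a lowest of 309.9, a median of 330.3 and a highest of 470 in untreated wild-type mice. It was 206, 319, 348, 463 and 438 in seized alpha7 +/T mice, against 490, 753, 504, 389 and 380 in untreated ones, and each seized mouse lay below the untreated mean. In seized beta4 null mice it was 237, 218, 366 and 390, against 316, 230, 376, 415 and 401 in untreated ones. The ranges overlapped in all 3 genotypes. The averaged log2 difference was -0.25 ± 0.13 (SE) and did not pass (limma adjusted p = 0.624), and it was -0.10 on high-ratio arrays alone. With array weights, beside the same 8.78%, it was -0.43 and passed (adjusted p = 0.0186). By genotype it was -0.03 for wild-type, -0.51 for alpha7 +/T and -0.21 for beta4 null.

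Around their group means, Avp and Oxt had a residual Pearson correlation of 0.569 on the 19 high-ratio arrays (Spearman 0.335), which did not pass (permutation p = 0.134, adjusted p = 0.625 over 14 correlations of 7 member pairs in the 2 array classes). Without the 2 arrays farthest from the median of Avp it was 0.195. On the 9 low-ratio arrays it was -0.125 (exact permutation p = 0.812). Each low-ratio correlation had only 48 orders in its exact permutation. Its p could not fall below 0.02, so a low-ratio pair alone could not pass after adjustment over 14 correlations. None of the 14 correlations passed. The smallest p was that of Npy with Sst on high-ratio arrays, at r = 0.45 and rho = 0.581 (permutation p = 0.0227, adjusted p = 0.318).

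Cck encodes the precursor of cholecystokinin, an abundant peptide of cortical and hippocampal neurons. In alpha7 +/T mice its signal was 1672, 1489, 1605, 1830 and 1401 after seizure, against 3184, 2858, 3112, 2330 and 1458 in untreated mice. All 5 seized mice lay below the untreated mean, and 1 untreated mouse lay within the seized range. It fell by a log2 difference of -0.65 ± 0.18 (SE), a fold of 0.639, in alpha7 +/T mice (limma adjusted p = 0.0454). In wild-type mice its signal was 1814, 1529 and 1664 after seizure, against a lowest of 1683, a median of 1919 and a highest of 2898 untreated. In seized beta4 null mice it was 2407, 2227, 1500 and 1849, against 1502, 1373, 1442, 1654 and 1681 in untreated ones. The log2 differences there were -0.28 ± 0.20 for wild-type and 0.36 ± 0.19 for beta4 null, and neither passed. The seizure difference did not pass the test for dependence on genotype (limma F test, F = 7.70, adjusted p = 0.327). With each of the 28 mice left out in turn, the alpha7 +/T difference ran from -0.84 to -0.56 and passed in 7 of the 28 fits.

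Of the 5 untreated alpha7 +/T mice, 4 were 6 weeks old, and their Cck signals were the highest of the group. Across genotypes the 7 untreated mice of 6 weeks with LT titles had signals of 2087 to 3184. The 1 untreated mouse of 6 weeks with a B4 title had 1502, and the 8 untreated mice of 7 weeks or older had 1373 to 1750. The 12 seized mice ran from 1401 to 2407. In mice of 7 weeks or older the alpha7 +/T difference turned to 0.13, with 1 untreated alpha7 +/T mouse left, and with age as a covariate it was -0.37 and did not pass (limma adjusted p = 0.528). Across all genotypes, age, title prefix, whose meaning the labels do not give, and treatment cannot be fully told apart. All alpha7 +/T mice, seized and untreated alike, had titles that begin with LT, so in that genotype it is age and treatment that cannot be told apart. With age added to the group means, Cck differed by -0.17 per week and did not pass (adjusted p = 0.88), where 0% of all probe sets passed.

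Npy encodes neuropeptide Y, a peptide of GABA interneurons that dampens excitation. Sst encodes the precursor of somatostatin, also a peptide of GABA interneurons. Npy signal was 834, 660.1 and 702 in seized wild-type mice, against a lowest of 568.1, a median of 682 and a highest of 823 in untreated ones. It was 439, 448, 530.4, 789 and 676 in seized alpha7 +/T mice, against 861, 412, 801, 795 and 757 in untreated ones. It was 585, 506, 927 and 1078 in seized beta4 null mice, against 526.2, 530.4, 854, 812 and 819 in untreated ones. In both mutants the low values of the seized mice were those of the low-ratio arrays. The averaged log2 difference was -0.05 ± 0.14 (SE), with an interval of -0.32 to 0.23, and it was 0.18 on high-ratio arrays alone.

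Sst signal was 1463, 1348 and 1520.0 in seized wild-type mice, against a lowest of 1024, a median of 1154 and a highest of 1670.0 in untreated ones. It was 980.4, 1452, 936, 1475 and 1404 in seized alpha7 +/T mice, against 1315, 1343, 1781, 1534 and 1340.0 in untreated ones. It was 1416, 1185, 1531 and 1960.0 in seized beta4 null mice, against 992, 931, 1588, 1503 and 1529 in untreated ones. The groups overlapped in each genotype. The averaged difference was 0.06 ± 0.11 (SE), with an interval of -0.16 to 0.28.

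Penk encodes proenkephalin, the source of the opioid enkephalins, and Tac1 encodes the precursor of substance P and neurokinin A. By its bright probe set, Penk signal was 3232, 3325 and 3129 in seized wild-type mice, against a lowest of 2715, a median of 2906 and a highest of 3510.0 in untreated ones. It was 2029, 2482, 2133, 3476 and 3433 in seized alpha7 +/T mice, against 2838, 2723, 2295, 2633 and 3290.0 in untreated ones. It was 2252, 2342, 3674 and 3019 in seized beta4 null mice, against 2593, 2534, 3439, 3576 and 2925 in untreated ones. The groups overlapped, and in every mutant group the lowest values stood on low-ratio arrays. The averaged difference was -0.02 ± 0.10 (SE).

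Tac1 signal was 357, 353 and 356 in seized wild-type mice, against a lowest of 299, a median of 320.2 and a highest of 378 in untreated ones. It was 261, 217, 266, 327 and 286 in seized alpha7 +/T mice, against 271, 262, 269, 214 and 314 in untreated ones. It was 285, 217, 337 and 336 in seized beta4 null mice, against 276, 241, 373, 319 and 337 in untreated ones. The 3 seized wild-type mice lay within 4 signal units of each other and inside the untreated range. The averaged difference was 0.02 ± 0.09 (SE), with an interval of -0.15 to 0.20.

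Gal encodes the precursor of galanin, an inhibitory peptide of the hypothalamus and brainstem. Its signal was 107, 111 and 121 in seized wild-type mice, against a lowest of 80.7, a median of 84.0 and a highest of 95.4 in untreated wild-type mice. These ranges did not overlap. The difference of 0.38 ± 0.19 (SE) in wild-type mice did not pass (limma adjusted p = 1.0). In the mutants the ranges overlapped: Gal was 96.0, 152, 152, 93.8 and 128 in seized alpha7 +/T mice, against 73.1, 128, 84.7, 133 and 129 in untreated ones. It was 103, 98.2, 93.3 and 129 in seized beta4 null mice, against 123, 104, 124, 118 and 89.0 in untreated ones. The averaged difference was 0.17 ± 0.11. The other Gal probe set had signals of 4.58 to 46.5 over all mice and was not tested.

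**Figure D3:**
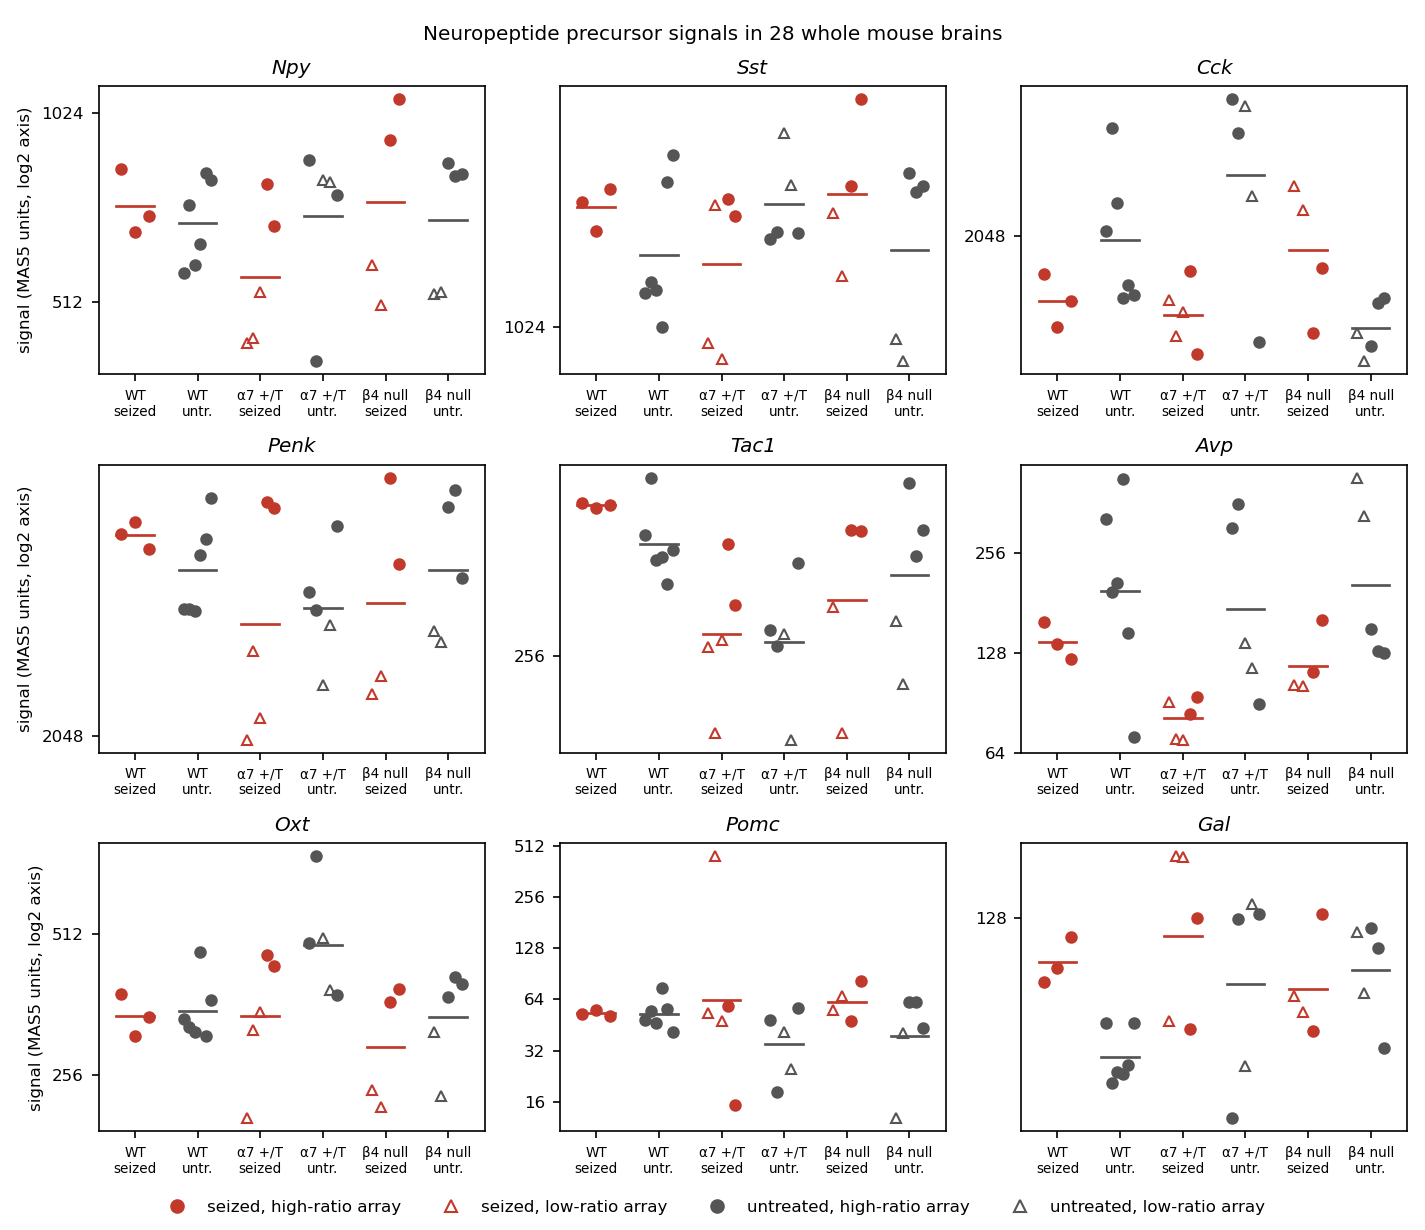
Signal on a log2 axis of the brightest probe set of each of 9 genes, 1 point per mouse, in 6 groups with seized mice in red and untreated mice in grey. Filled circles are high-ratio arrays, open triangles are low-ratio arrays, and lines are group means of log2 signal. Seized and untreated points overlap in every genotype for all genes but Gal, whose wild-type groups do not.

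Pomc encodes proopiomelanocortin, the precursor of corticotropin, melanocyte-stimulating hormone and beta-endorphin. Its signal was 52.5, 55.5 and 51.3 in seized wild-type mice, against a lowest of 40.9, a median of 51.4 and a highest of 74.3 in untreated ones. It was 53.1, 444, 47.6, 58.1 and 15.4 in seized alpha7 +/T mice, against 48.5, 18.1, 41.3, 24.8 and 56.6 in untreated ones. It was 55.7, 67.0, 47.6 and 81.9 in seized beta4 null mice, against 12.8, 40.7, 62.0, 61.8 and 43.6 in untreated ones. Seized alpha7 +/T mouse 2 stood apart at 444, which was 8.65 times the median of the other 27 mice and 5.42 times the highest of them. The averaged difference was 0.52 ± 0.33 (SE; limma adjusted p = 0.701), and it was 0.28 without that mouse. In alpha7 +/T mice it was 0.86, and 0.16 without that mouse.

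The same brain stood far above the others in several pituitary hormone transcripts. The prolactin gene Prl had a signal of 4235 in seized alpha7 +/T mouse 2, against 10.2 to 108 in the other 27 mice. The growth hormone gene Gh had 6111, against 44.3 to 221, and Cga, the common subunit of the glycoprotein hormones, had 255, against 7.47 to 50.8. Lhb and Ghrhr were also highest in that mouse, at 190.4 and 84.5, against highest values of 167 and 78.8 elsewhere. Fshb, Pitx1 and Tshb, at 26.8, 54.9 and 7.95, lay within the range of the other mice. Summed over the 8 of 12 listed pituitary markers with a probe set, the signal was 10966 in that mouse and 266 to 559 in every other. Its Avp signal, 70.2, and its Oxt signal, 319, lay within the range of its group. Whether this tissue accounts for the Pomc signal was not tested.

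**Figure D4:**
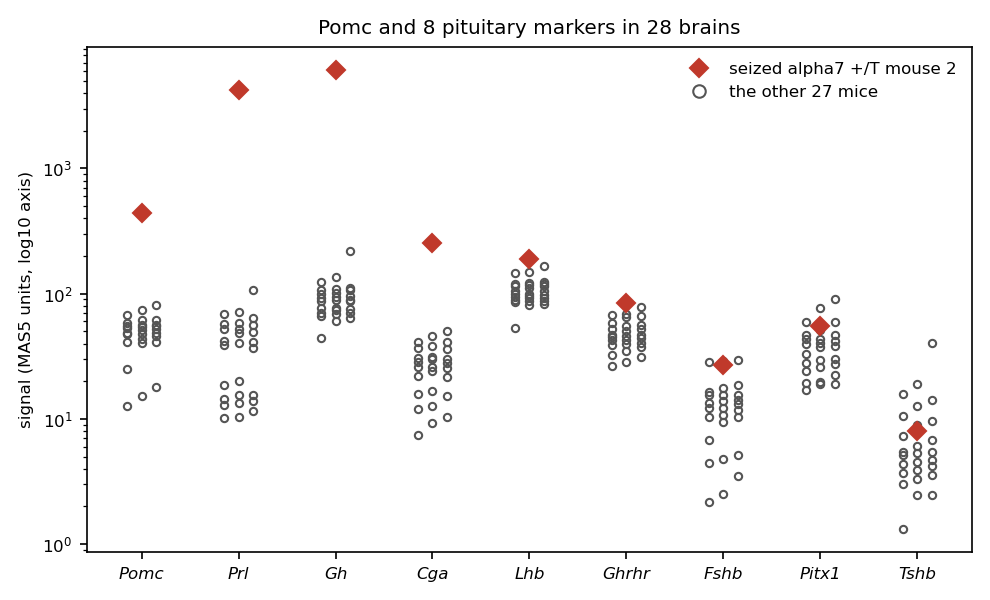
Signal on a log10 axis of Pomc and 8 pituitary markers, with seized alpha7 +/T mouse 2 as a red diamond and the other 27 mice as open grey circles. The diamond stands clear of the circles for Pomc, Prl, Gh and Cga, and lies among them for Fshb, Pitx1 and Tshb.

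Among untreated mice, 1 of 10 member probe sets passed between alpha7 +/T and wild-type, where 16.0% of all probe sets did, and 0 of 10 between beta4 null and wild-type, where 0.0136% did. Among seized mice, 0 of 10 passed between alpha7 +/T and wild-type (background 0%) and 0 of 10 between beta4 null and wild-type (background 0.0136%). At an unadjusted p under 0.05 the untreated counts were 3 for alpha7 +/T, beside 35.1% of all probe sets, and 2 for beta4 null, beside 12.9%. After seizure they were 1 for alpha7 +/T, beside 12.0%, and 0 for beta4 null, beside 4.42%. All of these comparisons with wild-type mice share their wild-type samples within a treatment. The untreated wild-type mice had high-ratio arrays throughout, so part of each mutant group differs from them in array class.

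The member called was the dim Penk probe set. Its signal was 141, 206, 295, 279 and 67.1 in untreated alpha7 +/T mice, against a lowest of 33.3, a median of 58.1 and a highest of 120 in untreated wild-type mice. It was higher by 1.53 ± 0.40 (SE) in log2 (limma adjusted p = 0.0198). The bright probe set of the same gene gave -0.12 ± 0.15 for this comparison, with an interval of -0.43 to 0.19, and the 2 probe sets therefore disagree. The highest signals, 295 and 279, stood on low-ratio arrays. On high-ratio arrays alone the difference of 1.05 missed the threshold (adjusted p = 0.152). Leaving out the 6-week mice gave 0.75 (adjusted p = 1.0). The call was also lost without untreated alpha7 +/T mouse 3 (1.34) and without mouse 4 of that group. The 8 untreated mice of 6 weeks had signals of 66.5 to 295, against 33.3 to 82.9 in the 8 untreated mice of 7 weeks or older. The dimmest Penk probe set had signals of 0.435 to 12.6 and was not tested.

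In the same untreated comparison, Oxt was at 0.48 ± 0.21 (SE), Tac1 at -0.31 ± 0.13, Cck at 0.30 ± 0.17 and Gal at 0.29 ± 0.17, and none passed (limma adjusted p of 0.101 to 0.206). With array class as a covariate Oxt was at 0.69 and passed (adjusted p = 0.0126), and the dim Penk probe set was at 1.08 (adjusted p = 0.0269). Untreated beta4 null mice differed from untreated wild-type mice by -0.41 ± 0.17 in Cck and by 0.35 ± 0.17 in Gal, and neither passed (adjusted p of 0.366 and 0.382).

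By sex, 0 of 10 member probe sets passed, male minus female with group means in the fit, where 0.0544% of all did, and 3 were found at an unadjusted p under 0.05, beside 12.2% of all. Those were Npy at -0.36 ± 0.12 (SE), Penk by its bright probe set at -0.24 ± 0.09 and Sst at -0.26 ± 0.10 in log2 (limma adjusted p of 0.241 to 0.311). Npy ran from 412 to 1078 with a median of 585 in the 15 males and from 448 to 927 with a median of 799 in the 13 females. By their Xist signal, 2 of the mice labelled female lay among the males. Without untreated wild-type mouse 5 the differences were -0.35 for Npy, -0.24 for Penk and -0.24 for Sst, and without untreated alpha7 +/T mouse 4 they were -0.37, -0.27 and -0.27 for these genes. None passed in either fit (limma adjusted p of 0.196 to 0.397). Of the males 7 had low-ratio arrays, as had 2 of the females. On high-ratio arrays alone the differences were -0.23 for Npy, -0.07 for Penk and -0.07 for Sst. Avp, which is known to be more abundant in males in some brain regions of rodents, was at 0.44 ± 0.24, with medians of 151 in males and 128 in females, and did not pass (adjusted p = 0.452).

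The members differed widely in their scatter between mice, taken as the residual SD of log2 signal around the 6 group means. Among probe sets whose mean log2 signal lay within 0.5, Avp, with an SD of 0.69, stood at the 94.7th percentile. Pomc, at 0.92, stood at the 91.7th, and the dim Penk probe set, at 0.72, at the 90.7th. Oxt (0.36) and Npy (0.37) stood at the 73.5th and 73.3rd. Cck (0.29), Sst (0.29) and the bright Penk probe set (0.25) lay between the 41.3rd and 52.0th percentiles. Gal (0.26) and Tac1 (0.20) lay at the 18.9th and 15.1st. On the 19 high-ratio arrays alone, Avp kept an SD of 0.72, at the 99.0th percentile, and Tac1 had 0.11, at the 0.751th. There Cck stood higher, at the 92.9th percentile with an SD of 0.33, and Pomc lower, at the 76.7th with 0.58. In the 14 mice of 7 weeks or older with high-ratio arrays, Avp had 0.67 (99.3rd percentile), while Cck had 0.15, Npy 0.16 and Oxt 0.17 (48.3rd to 56.3rd). In that subset the Avp signal of untreated wild-type mice ran from 71.2 to 425, and the highest was that of a mouse of 9 weeks. Over all arrays the SD of log2 Avp signal was 0.19 to 0.31 in the seized groups and 0.83 to 0.90 in the untreated ones. These are descriptions, with no test.

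**Figure D5:**
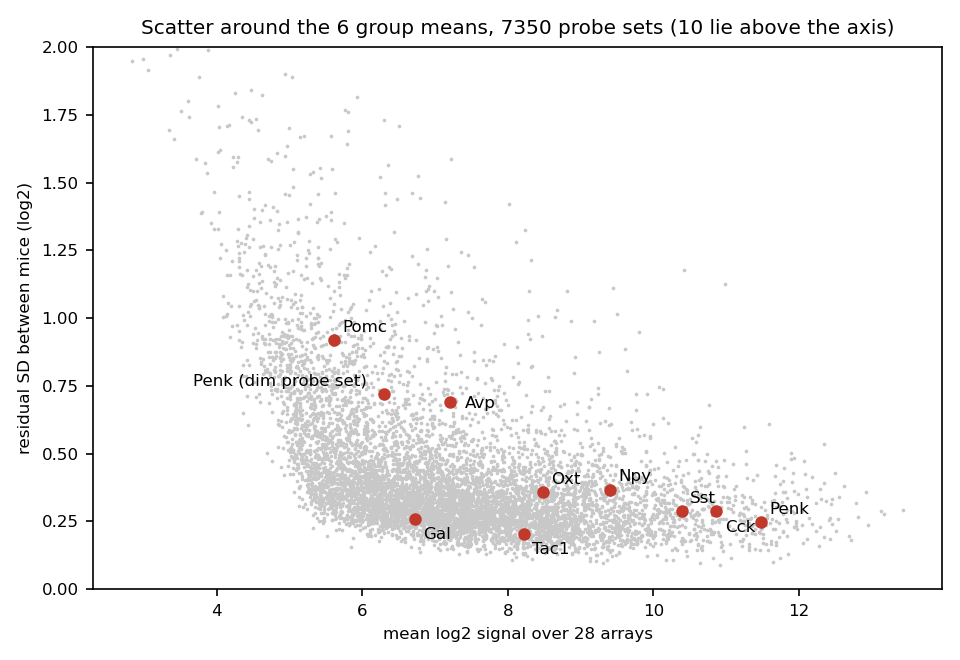
Residual SD of log2 signal between mice, around the 6 group means, against mean log2 signal over 28 arrays, for 7350 probe sets (grey) and the 10 member probe sets (red). Avp, Pomc and the dim Penk probe set lie in the upper part of the cloud for their signal, and Tac1 and Gal in its lower part.

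The markers of brain regions were read beside this scatter. Summed signals ran from 492.9 to 1011 in seized and 519 to 1357 in untreated mice for the striatum (5 of 12 markers with a probe set), and from 1890 to 3453 in seized and 1840 to 4803 in untreated mice for cortex and hippocampus (7 of 12). The striatal sums split by array class without overlap, at 922 to 1357 on the 9 low-ratio arrays and 492.9 to 750.2 on the 19 high-ratio arrays. Pde1b weighed most in that sum, with a median of 498 outside seized alpha7 +/T mouse 2, against 5.14 to 81.6 for the other markers. Of the 3 striatal markers past the filter, 1 was called higher and 1 lower on low-ratio arrays, where 52.1% of all probe sets passed. Olfactory bulb sums split likewise, at 912 to 1234 on low-ratio and 438 to 729 on high-ratio arrays. Thalamic sums did so at 1883 to 2126 and 1070 to 1526. As means of log2 signal over the same markers, the classes overlapped in each of these regions. A low-ratio array stood below a high-ratio one, at 4.42 against 5.78 for the striatum and 5.45 against 5.96 for the olfactory bulb. For the thalamus such a pair stood at 7.34 and 7.65. Past the filter, 2 of 2 olfactory bulb and 2 of 5 thalamic markers were called higher on low-ratio arrays, beside the same 52.1%. The 2 lists share Calb2. The cortical sums were 1840 to 2740 on low-ratio arrays and 2562 to 4803 on high-ratio arrays, and the hypothalamic ones 672 to 931 on low-ratio arrays and 752 to 1202 on high-ratio arrays. None of the 5 hypothalamic markers past the filter was called over the seizure average, where 0.408% of all probe sets were. The part of the region markers in the scatter of the members was not tested.

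Around the means of group and array class, the probe set most like Avp over 28 arrays was that of Zbtb7a (r = 0.91), followed by Arhgap39 (r = 0.84) and Acaa1a (r = 0.81). Npy was most like Crym (r = 0.91), Nop56 (r = 0.89) and Atp6v1e1 (r = 0.87), and Cck most like Mrps26 (r = 0.87), Rfng (r = 0.86) and Akap8l (r = 0.86). For Oxt the closest were Rps27 (r = 0.80), Ppp6r3 (r = 0.78) and Cckbr (r = 0.77), a receptor gene for cholecystokinin. For Sst they were Use1 (r = 0.82, and 0.79 by another probe set) and Dusp12 (r = 0.80), and for Pomc Iars (r = 0.78), Timm13 (r = 0.73) and Pcsk7 (r = 0.70). For Gal they were Sprr2e (r = 0.77), Wdr75 (r = 0.75) and 4931406C07Rik (r = 0.73), for Tac1 Cuedc2 (r = 0.76), Cyp51 (r = 0.68) and Ptch1 (r = 0.65), and for Penk Trmt2a (r = 0.75), Cript (r = 0.74) and Bscl2 (r = 0.74). Among the members themselves r was highest for Avp and Cck, at 0.506, and lowest for Penk and Cck, at -0.693. Avp had r = 0.427 with Oxt, -0.58 with Penk, -0.477 with Sst and -0.466 with Npy. These values over both array classes were not tested. The genes named as closest to a member were picked for the highest r in a search across the array. Such a pick gives high r by selection alone, and no baseline for it was computed. Whether these genes are expressed together with the members therefore cannot be read from their r. All r values given here share arrays and the age split of the untreated mice.

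The genes that make, pack, cut and receive neuropeptides gave no call over the seizure average, where 0.408% of all 7350 probe sets passed. Of 44 other peptide precursors, Bdnf included, 14 were tested and 0 passed, with a median log2 difference of 0.09, against 0.01 over all probe sets. Of 15 granins and dense-core vesicle proteins 12 were tested, of 11 processing enzymes 6, of 13 peptide-degrading enzymes 7 and of 30 receptors 9, and 0 passed in each list, with medians of -0.07 to 0.06. Hcrt, the precursor of the orexins, was at -0.33 ± 0.14 (SE; limma adjusted p = 0.514). Pcsk1n, an inhibitor of the prohormone convertase Pcsk1, was at -0.39 ± 0.17 (adjusted p = 0.52), and the granin-like Scg5 was at 0.19 ± 0.08 (adjusted p = 0.537).

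Between untreated alpha7 +/T and wild-type mice, beside the background of 16.0%, the calls were 0 of 14 other precursors, 2 up and 1 down of 12 vesicle proteins, 1 up and 1 down of 6 processing enzymes, 3 up of 7 degrading enzymes and 2 up of 9 receptors. Chromogranin A, Chga, was higher by 1.06 ± 0.33 in log2, Ptprn by 0.80 ± 0.26, and Cadps, a priming factor for dense-core vesicles, was lower at -0.63 ± 0.17. Of the proprotein-cutting enzymes, Pcsk5 was at 1.24 ± 0.34 and the protease Ctsl at -0.56 ± 0.17. Thop1, an oligopeptidase that degrades neuropeptides, was at 1.53 ± 0.43, Ece1 at 0.62 ± 0.20 and Enpep at 0.54 ± 0.16. The melanocortin receptor gene Mc5r was at 0.80 ± 0.14 and the somatostatin receptor gene Sstr4 at 0.63 ± 0.20. With array class as a covariate, Ptprn, Ece1 and Sstr4 no longer passed (adjusted p of 0.0549, 0.0939 and 0.0814), and Chga was at 0.60 (adjusted p = 0.0231) and Mc5r at 0.81 (adjusted p = 0.00322). All but Pcsk5, Enpep and Mc5r of these genes also differed between low-ratio and high-ratio arrays, where 52.1% of all probe sets did. Age was not in these fits, and 4 of the 5 untreated alpha7 +/T mice were 6 weeks old, against 3 of the 6 untreated wild-type mice.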

How the data were processed

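The authors deposited MAS5 signals, a linear intensity for each probe set, per the submitters' processing notes, which name no version of that software. Values were used as deposited, as log2, for 28 arrays of 1 mouse each. The number of arrays limits the precision, and no detection call was used, so weak signals cannot be set against background. Control probe sets (66) were left out, and a probe set was kept when it exceeded its array's median in at least 3 arrays, leaving 7350 (59.2%).

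Differences were tested with limma 3.58.1 (R 4.3.3; lmFit, eBayes with trend), with 1 mean for each of 6 groups, two-sided, adjusted by Benjamini-Hochberg over all probe sets kept, at 0.05. Sex was added as a covariate for its own comparison. Age per week and array class, split at a Gapdh log2 ratio of 0.5, were added as comparisons after the data were seen. The fit was also run on simulated arrays with independent normal noise and no effect of array class or age. That run cannot show how the fit behaves under the array classes of these data. Correlations of residuals used permutation within groups (100000 resamples or exact; Python 3.11.15, scipy 1.17.1). Alternatives were quantile normalization, median centring, other filters, no trend, array weights, covariates, subsets of arrays and each mouse left out.

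The members and the gene lists were chosen with earlier results of these data known. The rule for named genes took all members, the 3 probe sets most like each, list genes called in any contrast or with the smallest p over the average, the brightest markers, and Fos and Xist. Some genes that it allows are not printed, and the 8 pituitary markers were named in full after their values were seen. The deposited values and the reference tables do not name the build of the probe annotation, so no gene coordinates are given for them; promoter windows are those of RefSeq on GRCm38.p6.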

Additional observations from a re-analysis of the deposited data

Results flagged for a closer look

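In 60 sets of a member probe set and a group of 4 to 6 mice, a mouse far from the others of its group was looked for with Dixon's criterion, on log2 signal and on signal. On 1 scale, chance marks about 1 in 20 such sets if values are normally distributed, and it marks more when either scale counts. In all, 4 mice were found, 2 on the log2 scale and 3 on the linear scale. The linear scale was added after the Pomc values had been seen. Npy in untreated alpha7 +/T mouse 2 had a signal of 412, with the nearest mouse at 757, and stood out on both scales. Pomc in seized alpha7 +/T mouse 2 had 444, with the nearest at 58.1, and stood out on the linear scale; this is the mouse with the high pituitary transcripts. Pomc in untreated beta4 null mouse 1 had 12.8, with the nearest at 40.7, on the log2 scale. Oxt in untreated wild-type mouse 4 had 470, with the nearest at 370, on the linear scale.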

How the results depend on the processing

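Each comparison was repeated under 12 settings (11 for sex) and without each of the 28 mice. No paired analysis was possible because the labels give no replicate numbers that groups share. Under the settings, mice left out aside, the count of members called stayed at 0 in the seizure comparisons of wild-type and of beta4 null mice, for untreated beta4 null against wild-type mice, for the interaction and for sex. With array weights 2 members were called over the seizure average (Avp and Oxt), beside 8.78% of all probe sets (645, against 30 in the fit reported). That setting called 2 in seized alpha7 +/T against wild-type mice (the dim Penk probe set and Tac1), beside 13.7%, and 4 in seized beta4 null against wild-type mice (both Penk probe sets, Cck and Tac1), beside 27.2%. In the seizure comparison of alpha7 +/T mice, 0 were called with quantile normalization, median centring, no filter, eBayes without trend, age, array class with age, high-ratio arrays only, or mice of 7 weeks or older, where 0.109% to 4.07% of all were called, and 2 with array class (Cck and the dim Penk probe set), beside 13.3%. Between untreated alpha7 +/T and wild-type mice, 2 were called with median centring (the dim Penk probe set and Tac1; 19.7% of all), with array class (9.1%) and with array class and age (6.1%; the dim Penk probe set and Oxt in both). On high-ratio arrays (0.0408%) and in mice of 7 weeks or older (0.0544%) 0 were called. Leaving out 1 mouse gave 0 to 3 calls in alpha7 +/T seizure, 0 to 3 between untreated alpha7 +/T and wild-type, and 0 to 1 for the interaction, the highest of each without untreated alpha7 +/T mouse 5, where 9.12%, 27.8% and 0.435% of all were called in these comparisons, and 0 to 0 elsewhere. Cck in alpha7 +/T mice passed in 7 of these 28 repeats and ran from -0.84 to -0.56. Its interaction F was 15.3 and passed without that mouse. The dim Penk probe set ran from 1.34, without untreated alpha7 +/T mouse 3, to 1.87.

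Averaged seizure differences, none of which passed, changed sign in these settings. Npy turned to 0.18 on high-ratio arrays and 0.0042 with array class and age, and the bright Penk probe set to 0.0117 (quantile normalization), 0.0295 (array class) and 0.12 (high-ratio arrays). The dim Penk probe set turned to 0.26, Cck to 0.15 and Tac1 to -0.0518 in mice of 7 weeks or older, where Cck in alpha7 +/T mice turned to 0.13. Sst turned to -0.0783 and Tac1 to -0.0522 with array weights, and Pomc to -0.0338, and to -0.30 in alpha7 +/T mice, on high-ratio arrays. Without 1 mouse, Npy ran from -0.11 to 0.014, the bright Penk probe set from -0.0608 to 0.0176 and Tac1 from -0.0055 to 0.0694. Of 42 recomputed residual correlations, 12 had the other sign. The setting with array class and age together, and the scatter in mice of 7 weeks or older on high-ratio arrays, were chosen after seeing the data. The causes were not tested.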
